A study of Mus musculus with 12 samples.

Results

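Most of the small heat shock proteins named here are compact chaperones that share an alpha-crystallin domain. Bag3 is the co-chaperone that holds Hspb8 in a working complex. Transcripts of all these genes were followed in germ cell and Sertoli cell fractions of testes from mice labelled TAp73 knockout and control. The members were all probes whose accession maps to Hspb1, Hspb2, Hspb3, Hspb6, Hspb7, Hspb8, Hspb9, Hspb11, Cryab or Bag3. That gave 11 probes of 10 genes, out of 39429 probes for 32496 genes on the array, with 2 probes for Cryab and 1 for each of the others. Of the 10 genes, 9 passed the filter on dim probes, as did 25019 genes in all, and Hspb3 did not. The group was selected on the measured knockout against control difference of Hspb8 in the germ fraction, where Hspb8 was higher in knockouts. Knockout against control in the germ fraction is therefore given as a description, without a test, and so are the comparisons of Hspb8 between fractions.

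The mice were male C57BL/6J animals, 3 labelled TAp73 knockout (numbers 120, 86 and 72) and 3 labelled wildtype (99, 73 and 74), and each gave 1 germ fraction and 1 Sertoli fraction. The titles call control mice 73 and 74 het, so the control group may hold both genotypes. Ages were 8 months for 4 of the mice, 4 months for mouse 120 and 5 months for mouse 99. TAp73 is the form of p73, a p53 family member, that carries the transactivation domain, and the labels do not give the allele or the cell types in which it is lost. The question behind the comparisons is which transcripts depend on TAp73 in each compartment of the testis.

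On the 12 arrays, between 64.1% and 78.9% of probes were well above background. The number of arrays, 3 per group, limits the precision. Levels are log2 of the background-corrected signal minus that array's 75th percentile, so 0 is the 75th percentile of the array and each step of 1 is a 2-fold difference. Each probe has its own brightness, so levels are compared between arrays for the same probe. Sums over marker genes add the signals of different probes and so weight bright probes most, and they too are compared only between arrays. All 3 probes of Trp73, the gene that encodes TAp73, gave signal on the knockout arrays, at -2.76, -2.56 and -3.29 in the germ fraction for the probe A_52_P193555, against -9.40, -3.63 and -4.15 in the controls. Where these probes lie relative to the deleted part is not given in the sources used here, so this signal does not check the labels, and knockout and control are the labels' words throughout.

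The labelled cell types were set against their marker genes. Spermatid markers such as the protamines summed to between 561 and 678 times the array's 75th percentile signal in control germ fractions, and to between 1.08 and 3.78 times in control Sertoli fractions. Of 15 Sertoli markers tested (Amh, the sixteenth, did not pass the filter), 8 were called lower and 5 higher in control Sertoli than in control germ fractions. Their median difference was -0.83, and 13 were well above background on all 3 control Sertoli arrays. Fshr and Tsx lay near the floor there, at means of -8.66 and -8.26, against -3.36 and -0.16 in control germ fractions. They passed the filter through arrays where they were higher, so their direction is not read. Of all genes, 36.6% were called lower and 39.8% higher. With the array median as the scale, the median of all genes moved from 0.21 to 0.88, so the marker median depends on the scale. Smooth muscle and peritubular myoid markers summed to between 414 and 612 in control Sertoli fractions and to between 20.9 and 24.5 in control germ fractions, and fibroblast markers to between 277 and 622 against 1.69 and 2.72. Most Sertoli markers were thus not called higher in the fraction labelled Sertoli, which was rich in muscle-type and fibroblast transcripts. The name Sertoli fraction below is only its label. In such bulk fractions, fewer cells of a type and less RNA per cell cannot be told apart.

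Small heat shock proteins bind unfolding proteins without using ATP and hold them until other chaperones refold or degrade them. Hspb8 and Bag3 form a complex with Hsc70 and the ubiquitin ligase Chip (Stub1) that sends damaged proteins, in muscle mainly filamins, to autophagy. Hspb1, Cryab, Hspb6 and Hspb8 are widespread in muscle and other contractile cells, Hspb2, Hspb3 and Hspb7 are mainly known from heart and skeletal muscle, Hspb9 is a testis form, and Hspb11 is a subunit of the intraflagellar transport machinery that builds cilia and flagella.

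Heat shock factors bind arrays of the unit GAA in alternating orientation, and p53 family members, p73 among them, bind a decamer half-site. Promoters were searched for these letters because members that share a heat shock element could share a regulator. Windows of 250 bases before to 50 bases after the start site were available from RefSeq (GRCm38.p6) for 8 of the 10 genes, in 9 windows. Cryab and Hspb2 had none. The pair GAANNTTC, which reads the same on both strands, was present in windows of 5 genes (Hspb8, Hspb1, Hspb6, Bag3 and Hspb3), and in 7.86% of all 32851 windows. In Hspb8, Hspb1, Hspb6 and Bag3 the letters were exactly GAAGTTTC, which occur on either strand in 1.21% of all windows, a count made after the matches were seen. The windows of Hspb8, of its partner Bag3 and of Hspb1 are printed here so that the position of the pair can be compared, with each GAANNTTC in capitals.
Hspb8: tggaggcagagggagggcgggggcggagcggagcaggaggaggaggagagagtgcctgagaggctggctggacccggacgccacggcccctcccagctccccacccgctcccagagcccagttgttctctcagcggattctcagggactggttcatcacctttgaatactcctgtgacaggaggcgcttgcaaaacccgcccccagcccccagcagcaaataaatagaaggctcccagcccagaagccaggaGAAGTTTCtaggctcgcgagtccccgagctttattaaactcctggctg
Hspb1: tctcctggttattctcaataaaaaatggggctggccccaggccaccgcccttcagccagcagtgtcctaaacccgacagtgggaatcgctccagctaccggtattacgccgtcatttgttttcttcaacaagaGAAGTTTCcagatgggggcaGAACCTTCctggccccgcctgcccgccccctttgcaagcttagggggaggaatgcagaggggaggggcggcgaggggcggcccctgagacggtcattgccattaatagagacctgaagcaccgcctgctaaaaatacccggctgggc
Bag3: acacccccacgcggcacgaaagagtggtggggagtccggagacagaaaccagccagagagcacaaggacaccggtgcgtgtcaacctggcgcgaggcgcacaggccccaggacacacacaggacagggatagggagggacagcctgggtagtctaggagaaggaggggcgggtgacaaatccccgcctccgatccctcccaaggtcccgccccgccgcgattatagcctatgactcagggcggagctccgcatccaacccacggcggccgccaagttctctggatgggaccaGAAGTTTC
The Hspb8 window is chr5:116422815-116423114 on the minus strand, that of Hspb1 is chr5:135887669-135887968 on the plus strand and that of Bag3 is chr7:128523333-128523632 on the plus strand. The pair began at position 3 after the start site in Hspb8 and at position 43 in Bag3. In Hspb1 it began before the start site, at positions -117 and -97, and in Hspb6 at -120. The opposite pair TTCNNGAA was in no member window, against 8.52% of all windows, and a run of 3 alternating units in none, against 0.603%. The p53 family half-site was found in the Hspb11 window alone, as GGGCATGTCC at position -26, and in 8.36% of all windows. The run of 3 contains both pairs, all searches cover both strands, and matches describe letters in a window, not binding.

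Hspb8, the small heat shock protein that works with Bag3, showed the large difference for which the group was chosen. Its germ-fraction levels were -3.13, -3.28 and -2.14 in knockout mice 120, 86 and 72, and -7.19, -5.95 and -5.54 in control mice 99, 73 and 74. Every knockout array lay above every control array, and the control array of mouse 99 was not well above background. The difference was 3.38 ± 0.44 (log2, SE of the limma fit, n = 3 per group), higher in the knockouts. No fold is given, since the control mean includes the dim array of mouse 99. Without mouse 99 it was 2.89, between mice that shared a slide it was 4.06, 2.67 and 3.40, and with normexp background correction it was 2.29. Over 16 alternatives it lay between 2.29 and 4.34, the highest with mouse 99 as the only control. In this contrast 0.216% of all genes tested were called higher at an adjusted p of 0.05 (limma), a share given as background, with no call read for Hspb8.

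Bag3, the partner of Hspb8, stood at 2.30, 2.25 and 2.28 in knockout germ fractions and at 2.14, 2.16 and 2.17 in control germ fractions. These ranges are narrow and do not overlap, but the difference was 0.12 ± 0.15 (SE), a 1.09-fold higher level, with an interval of -0.21 to 0.45. It ranged from 0.0015 with the array median as the scale to 0.22 under quantile normalisation. The amount of Hspb8 transcript thus differed between the genotypes by 3.38 on the log2 scale in fractions where that of Bag3 differed by 0.12.

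Hspb1, the chaperone best known for stabilising actin filaments, gave 3.60, 3.88 and 4.13 in knockout germ fractions and 3.29, 3.06 and 3.20 in control germ fractions. The knockout arrays all lay above the controls, with a difference of 0.69 ± 0.18 (SE), or 1.61-fold. Cryab, alpha-B crystallin, which protects the intermediate filament desmin, gave -1.82, -1.79 and -1.72 in knockouts and -2.56, -2.27 and -2.11 in controls with the probe used in the fit. Its difference was 0.54 ± 0.17, and its second, dimmer probe gave 0.73 ± 0.27. With the probe used in the fit the genotypes did not overlap, while with the second probe knockout mouse 86 (-4.48) lay just below control mouse 74 (-4.44).

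Hspb2, a muscle form whose gene lies within the annotated span of Cryab, gave -2.86, -2.86 and -2.75 in knockout germ fractions and -3.35, -3.30 and -3.42 in controls. The arrays again did not overlap, and the difference was 0.53 ± 0.16. In all, 5 of the 9 tested members (Hspb8, Hspb1, Cryab, Hspb2 and Bag3) had every knockout germ array above every control germ array, against 6.58% of all genes tested. The choice of the group rests on this contrast, so nothing is read from that count.

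The other 4 tested members had overlapping germ arrays. Hspb6, a chaperone of smooth and cardiac muscle, lay between 1.30 and 1.54 in knockouts and between 1.34 and 1.49 in controls, a difference of -0.04 ± 0.17. Hspb7, a filamin-binding form of heart muscle, lay between -2.50 and -1.57 in knockouts and between -2.60 and -1.24 in controls, a difference of -0.0063 ± 0.35. That difference was 0.69 without both mice titled het, which leaves mouse 99 as the only control. Hspb9, the testis form, was high on all 6 germ arrays, between 5.12 and 5.31 in knockouts and between 5.28 and 5.40 in controls, a difference of -0.10 ± 0.35. Hspb11 lay between 1.58 and 2.26 in knockouts and between 1.74 and 2.65 in controls, a difference of -0.28 ± 0.28. Hspb3 was not well above background on any of the 6 germ arrays. The median difference over the 9 members was 0.12, beside -0.04 over all genes tested.

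**Figure D1:**
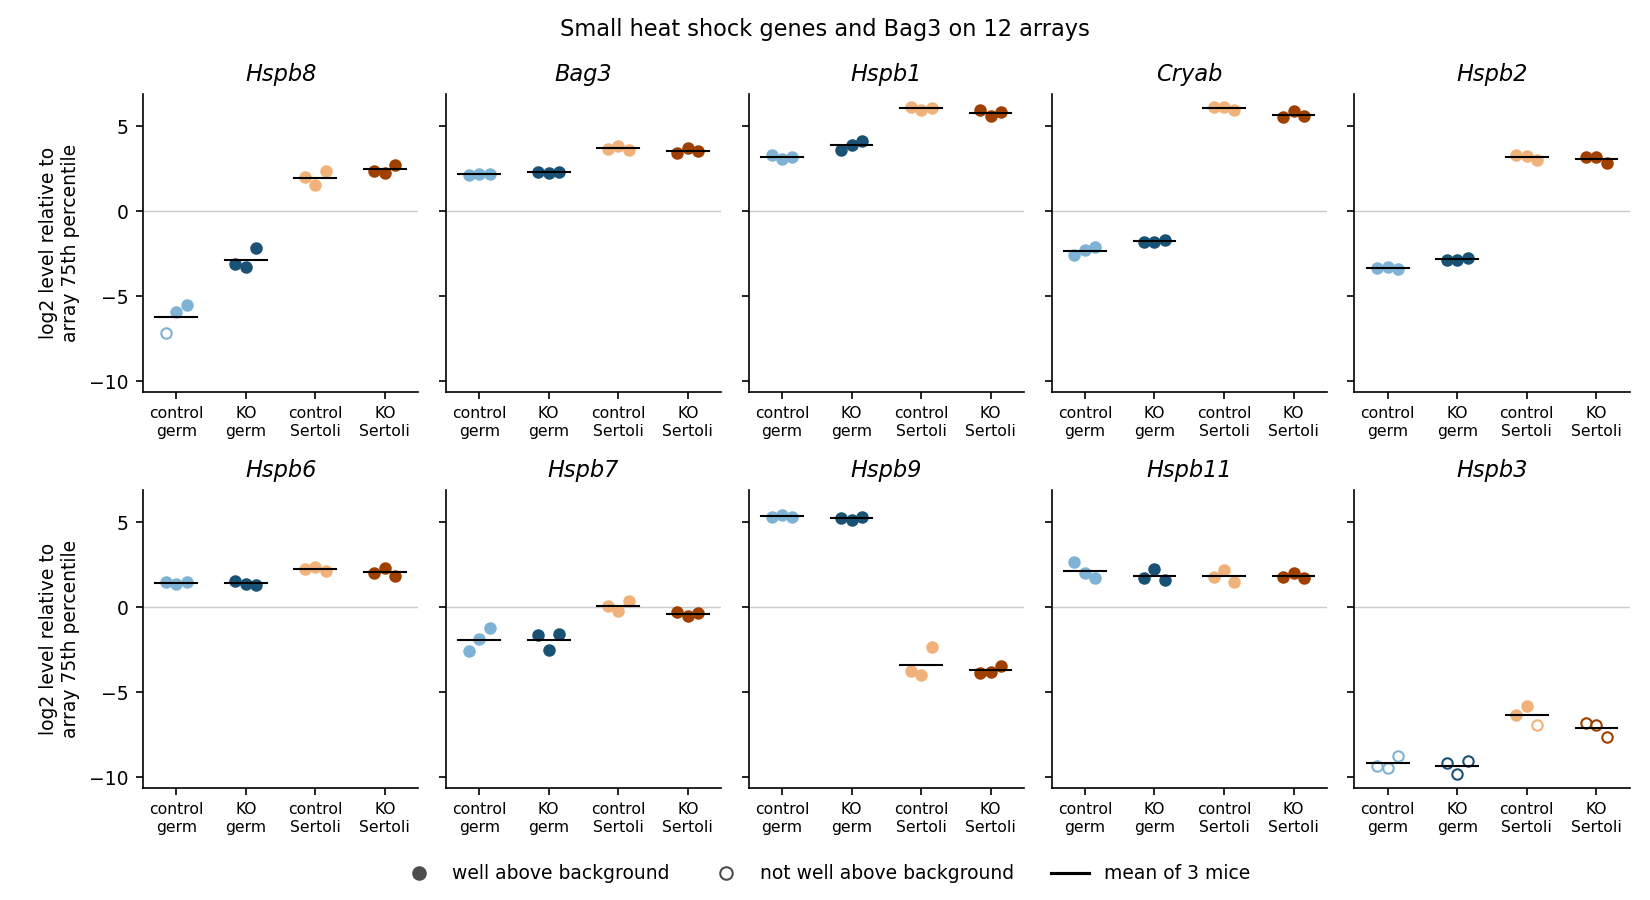
Level of each of the 10 genes on the 12 arrays (log2 relative to the array's 75th percentile), 1 point per mouse in 4 groups of 3, with the group mean as a line and open points where the probe was not well above background. Hspb8 in the germ fraction lies between -7.19 and -5.54 in controls and between -3.28 and -2.14 in knockouts, Bag3 hardly differs between genotypes, and Hspb9 is the 1 gene that is far higher in the germ fraction.

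The markers of other cell types moved with these germ-fraction values to different degrees. In knockout germ fractions the 15 Sertoli markers summed to between 112 and 148, against 78.4 to 92.9 in controls, and all 15 had a difference above 0, with a median of 0.62. The 6 Leydig cell markers summed to between 7.18 and 13.1 against 2.52 to 6.41, and the 11 macrophage and leukocyte markers to between 2.89 and 5.31 against 2.15 to 2.45. The 6 fibroblast markers summed to between 2.98 and 4.37 against 1.69 to 2.72. The 8 smooth muscle and myoid markers summed to between 21.3 and 22.5 against 20.9 to 24.5, ranges that overlap, although 7 of the 8 had a difference above 0 (median 0.46). The exception was Actg2, the largest term of that sum, with a mean of 3.49 in knockouts and 3.96 in controls. Desmin, a defining muscle marker, had the largest rise of the 8, with a mean of -4.35 in knockouts and -5.32 in controls. Only 6 of the 8 were well above background on all 3 control germ arrays. Spermatid markers summed to between 505 and 604 in knockouts against 561 to 678 in controls, and 10 of 12 had a difference below 0 (median -0.35). No marker list was at 0 in either genotype, and their part in the differences of Hspb8, Hspb1, Cryab and Hspb2 was not tested.

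The same arrays can be read within each mouse, as the germ-fraction level in percent of the Sertoli-fraction level of that mouse for the same probe. For Hspb8 this was 0.172%, 0.567% and 0.409% in control mice 99, 73 and 74 and 2.25%, 2.13% and 3.40% in knockout mice 120, 86 and 72. All knockout mice lay above all controls, with a gap wider than the spread in either genotype. The germ array of mouse 99 was not well above background for Hspb8, so its percent is uncertain. These percents use the germ arrays that chose Hspb8, so they are a description without a test. For Cryab it was between 0.245% and 0.375% in controls and between 0.491% and 0.636% in knockouts, and for Hspb2 between 0.975% and 1.17% against 1.54% and 2.12%. Hspb1 went from between 13.7% and 14.1% in controls to between 20.1% and 31.2% in knockouts. Bag3 was between 31.5% and 36.8% in controls and between 37.0% and 46.7% in knockouts, so the 2 genotypes lay next to each other without overlap. For Hspb6 and Hspb7 the genotypes overlapped, at 49.5% to 64.5% against 50.8% to 73.0% for Hspb6 and at 15.7% to 33.3% against 25.3% to 43.1% for Hspb7.

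**Figure D2:**
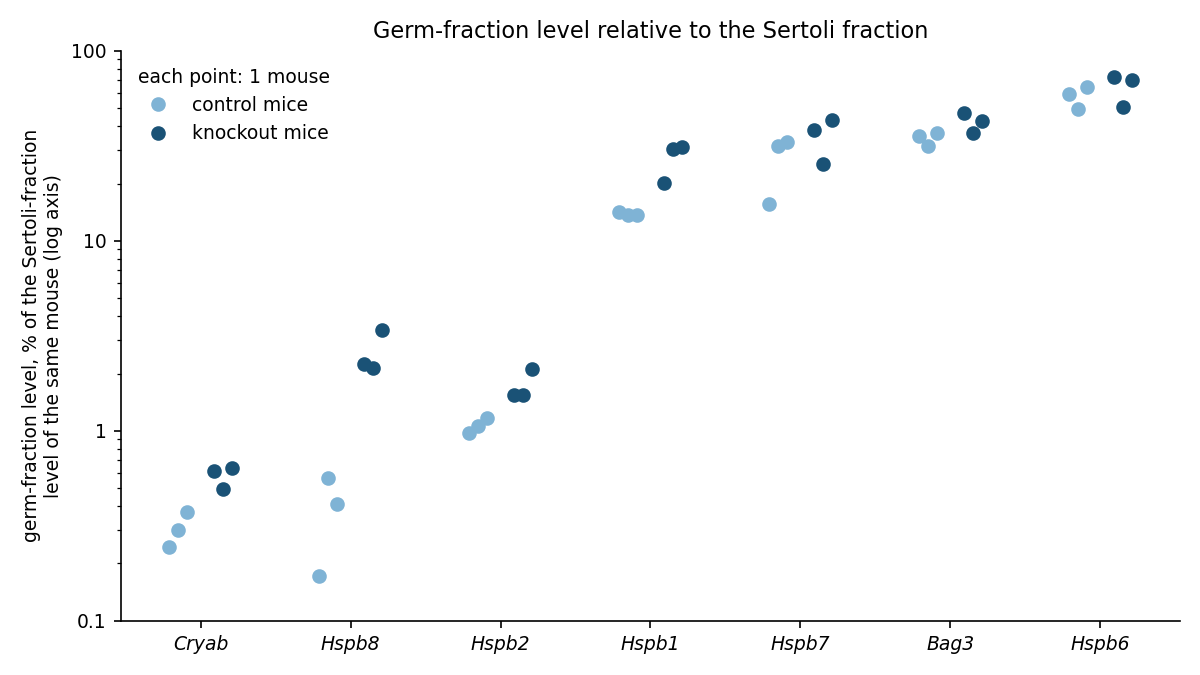
Germ-fraction level as a percent of the Sertoli-fraction level of the same mouse (log axis) for the 7 members with a higher mean in the Sertoli fraction, with 1 point per mouse and 3 mice per genotype. Hspb8 lies between 0.172% and 0.567% in controls and between 2.13% and 3.40% in knockouts, the widest gap of the 7, and Hspb6 and Hspb7 overlap. The 0.172% rests on a germ array where Hspb8 was not well above background.

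Hspb8, Cryab and Hspb2 belong to the 1624 genes that were at least 16-fold higher in the Sertoli fraction than in the germ fraction, averaged over the genotypes. Of these 1624 genes, 83.7% had a higher mean in knockout than in control germ fractions, and the median difference was 0.46. Cryab (0.54) and Hspb2 (0.53) lay near this median, at the 57.5th and 56.8th percentile. Hspb8 lay at the 99.6th percentile, and the 6 genes above it were Gpnmb, Spp1, Timp1, Serpina3n, Wnt4 and an unnamed transcript, named here after their values were seen. The order among these genes is uncertain, since in control germ fractions Wnt4 was well above background on 0 of 3 arrays, Gpnmb, Spp1 and Serpina3n on 1 and Hspb8 on 2. Timp1 inhibits metalloproteinases, Spp1 is the secreted protein osteopontin and Gpnmb is a membrane glycoprotein of macrophages and other cells. This is a description of the contrast that chose Hspb8 and carries no test.

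**Figure D3:**
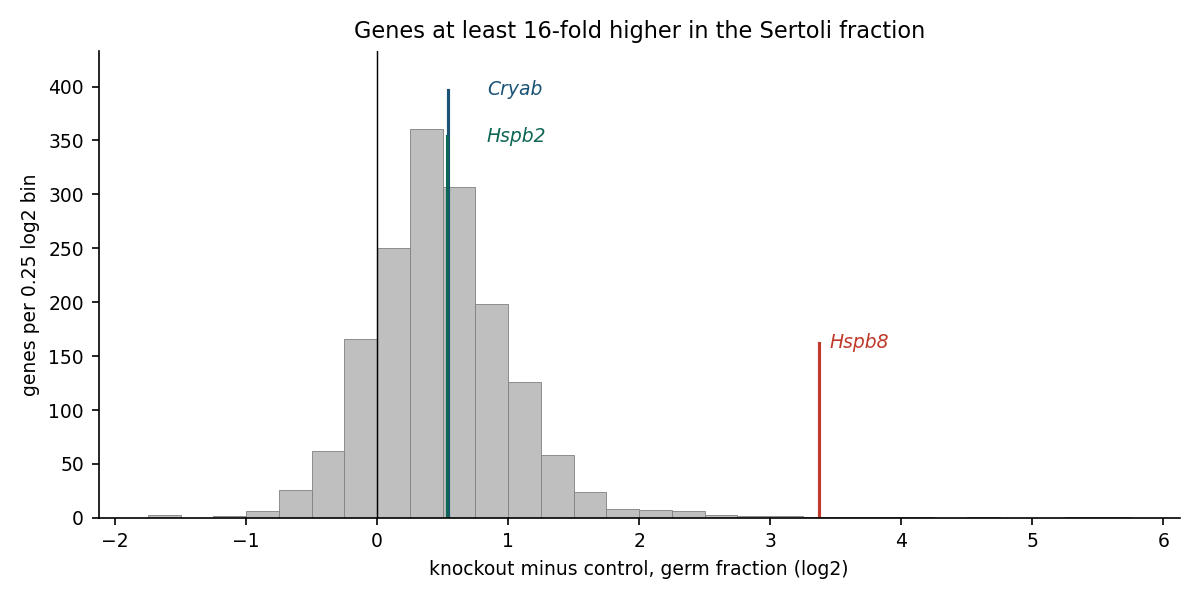
Number of genes per bin of 0.25 of the knockout minus control difference in the germ fraction (log2), for the 1624 genes at least 16-fold higher in the Sertoli fraction, with vertical lines at 3 members. The distribution centres on 0.46, where Cryab (0.54) and Hspb2 (0.53) lie, and Hspb8 (3.38) lies far to its right.

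In the Sertoli fraction, on arrays that the choice of the group did not use, none of the 9 members passed the test between knockout and control (limma, adjusted p = 0.9996 for each). No gene at all was called there (0.0% of 25019, in either direction), and at an unadjusted p of 0.05 there was 1 member against 3.03% of all genes. Hspb8 stood at 2.34, 2.27 and 2.74 in knockouts and at 1.99, 1.51 and 2.39 in controls. The knockouts were higher within each of the 3 slides, the groups overlapped, and the difference was 0.48 ± 0.44 (SE) with a 95% interval of -0.48 to 1.45. The interval does not exclude a change of up to 1.45 in the same direction as in the germ fraction.

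Bag3 stood at 3.40, 3.69 and 3.51 in knockout Sertoli fractions and at 3.64, 3.83 and 3.62 in controls. The groups overlapped, with a difference of -0.16 ± 0.15 and an interval of -0.49 to 0.16. Cryab was the member with an unadjusted p under 0.05, at 5.52, 5.88 and 5.58 in knockouts and 6.11, 6.10 and 5.95 in controls. All its knockout arrays lay below the controls, with a difference of -0.40 ± 0.17 and an interval of -0.78 to -0.013 before any adjustment, and its second probe, whose groups overlapped, gave -0.22 ± 0.27. Hspb1 lay at 5.92, 5.60 and 5.81 in knockouts and 6.12, 5.93 and 6.07 in controls, arrays that also did not overlap, with a difference of -0.26 ± 0.18. Hspb7 lay at -0.29, -0.52 and -0.35 against 0.08, -0.22 and 0.35, again without overlap, with a difference of -0.45 ± 0.35.

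Those 3 members (Cryab, Hspb1 and Hspb7) were lower without overlap, which held for 4.86% of all genes. The intervals of Hspb1 (-0.66 to 0.14) and Hspb7 (-1.22 to 0.31) include 0. Hspb2, Hspb6, Hspb9 and Hspb11 had overlapping arrays and differences of -0.16, -0.19, -0.33 and 0.0036. In all, 7 of 9 members had a difference below 0 and the median over the members was -0.19. The median over all genes was -0.10 on this scale, -0.0086 under quantile normalisation and -0.41 with normexp. It depends on the scale, so nothing is read from that count. Smooth muscle and myoid markers moved the same way, with a sum between 291 and 431 in knockout and between 414 and 612 in control Sertoli fractions and a difference below 0 for 8 of 8 markers (median -0.39), and their part in the lower values of Cryab, Hspb1 and Hspb7 was not tested.

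**Figure D4:**
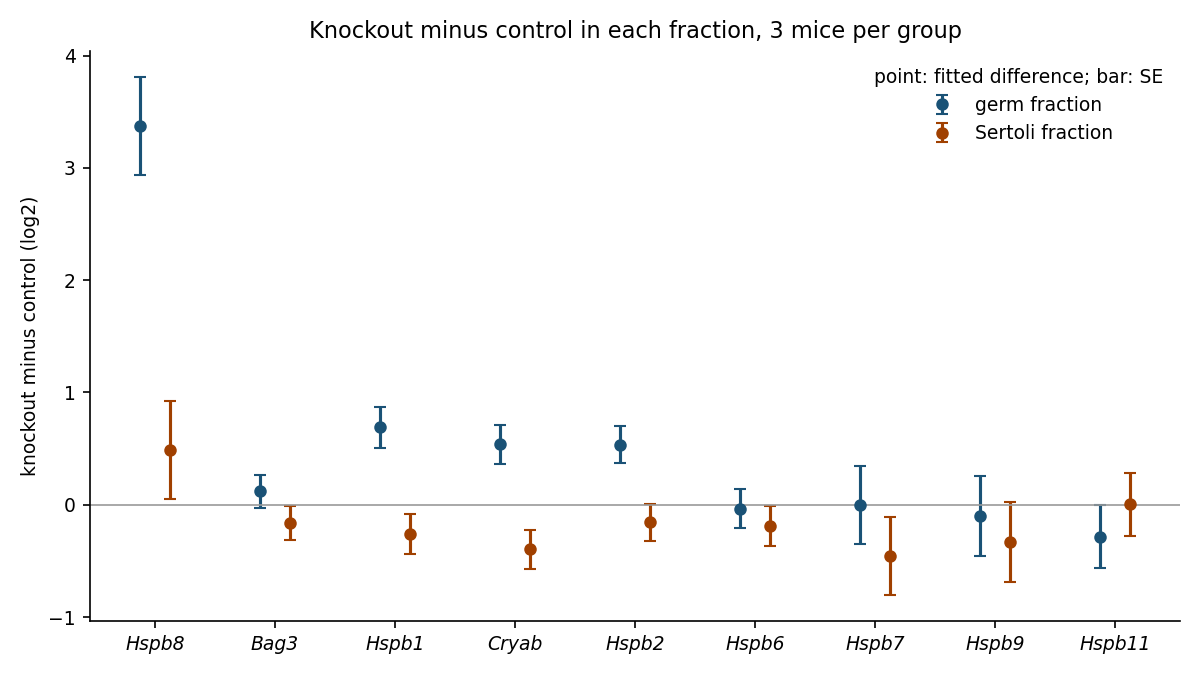
Knockout minus control difference (log2, with the SE of the limma fit as the bar) of the 9 tested members in the germ fraction and in the Sertoli fraction, 3 mice per group. Hspb8 stands apart in the germ fraction at 3.38, Hspb1, Cryab and Hspb2 lie between 0.53 and 0.69 there, and in the Sertoli fraction the values lie between -0.45 and 0.48.

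The knockout differences of the fractions were set side by side as the germ difference minus the Sertoli difference, without a test, since this value contains the contrast that chose the group. It was 2.89 ± 0.62 (SE) for Hspb8, 0.95 ± 0.26 for Hspb1, 0.93 ± 0.25 for Cryab and 0.69 ± 0.23 for Hspb2. For Bag3 it was 0.28 ± 0.21, and for Hspb6, Hspb7, Hspb9 and Hspb11 it lay between -0.29 and 0.45, each within 1 SE of 0. Hspb1, and Cryab with the probe used in the fit, were higher in knockouts on all germ arrays and lower on all Sertoli arrays, with no overlap in either fraction. With the second Cryab probe the genotypes overlapped in both fractions.

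Between the fractions of control mice, 8 members have a test, and 6 of them (Hspb1, Hspb2, Hspb6, Hspb7, Cryab and Bag3) were higher in the Sertoli fraction and Hspb9 in the germ fraction, by limma at an adjusted p of 0.05. Of all genes, 39.8% were called higher and 36.6% lower in the Sertoli fraction, so a call is common in this comparison. In knockout mice the same 6 were called higher and Hspb9 lower, beside 37.9% and 37.1% of all genes. Hspb8 is left out of these counts, because the germ arrays compared here also chose it. With the array median as the scale, the split of calls over all genes moved from 52.1% higher to 63.2% in controls and from 50.6% to 64.7% in knockouts, and the median of all genes from 0.21 to 0.88 and from 0.09 to 0.94.

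Cryab had a difference of 8.37 ± 0.17 (SE) between Sertoli and germ fraction in control mice, or 331-fold (adjusted p = 1.07e-10, limma). In knockout mice it was 7.44, or 173-fold (adjusted p = 1.43e-10, limma). Hspb8 differed by 8.19 ± 0.44 in controls and by 5.30 in knockouts (39.5-fold). The control value lay between 6.77 and 9.18 over 16 alternatives, the highest with mouse 99 as the only control. As 1 of 3 control germ arrays was not well above background, no fold is given for controls. Hspb2 stood at 3.33, 3.25 and 3.01 in control Sertoli fractions and differed by 6.55 ± 0.16 (93.9-fold, adjusted p = 1.57e-10, limma). In knockouts, where its Sertoli fractions stood at 3.16, 3.16 and 2.81, it differed by 5.86 (adjusted p = 2.44e-10, limma). These 3 muscle-associated transcripts spread over less than 1 log2 unit within each Sertoli group.

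Smaller differences in the same direction were found for 4 members. Hspb1 differed by 2.85 ± 0.18 in controls (7.23-fold, adjusted p = 6.18e-08, limma) and by 1.90 in knockouts. Hspb7 differed by 1.97 ± 0.35 in controls (adjusted p = 3.09e-04, limma) and by 1.53 in knockouts (adjusted p = 0.00198). Bag3 differed by 1.54 ± 0.15 in controls (2.90-fold, adjusted p = 2.23e-06, limma) and by 1.25 in knockouts. Hspb6, whose Sertoli fractions lay between 1.82 and 2.35, differed by 0.80 ± 0.17 in controls (adjusted p = 0.00142, limma) and by 0.65 in knockouts (adjusted p = 0.00555). The Hspb6 call in knockouts was lost without mouse 86 (0.48, adjusted p = 0.0749, limma). Without the mice titled het, which leaves mouse 99 as the only control, its difference in controls was 0.75.

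Hspb9 had the opposite pattern, with Sertoli-fraction levels of -3.78, -3.98 and -2.36 in control mice 99, 73 and 74 and of -3.90, -3.78 and -3.43 in knockouts. Its difference was -8.71 ± 0.35 in controls, a 418-fold higher level in germ fractions (adjusted p = 2.04e-09, limma), and -8.94 in knockouts (adjusted p = 1.89e-09). The Sertoli array of mouse 74, where Hspb9 was highest, also had the highest spermatid marker sum of the Sertoli arrays, 3.78 against 0.76 to 1.44 on the other 5. Among the Sertoli arrays, the fibroblast (622), smooth muscle and myoid (612) and macrophage and leukocyte (4.33) sums were also highest there. Spermatocyte (3.40 there, 3.85 for control mouse 99), spermatogonia, striated muscle and Sertoli sums were highest on other arrays. The array of mouse 74 was also the dimmest, with a 75th percentile signal of 1355, against 2863 to 3929 on the other Sertoli arrays. The parts of residual germ cells and of the dim array in that Hspb9 value were not tested. Hspb11 did not pass between the fractions in controls (-0.30 ± 0.28, interval -0.93 to 0.32, adjusted p = 0.345, limma) or in knockouts (-0.016, interval -0.64 to 0.61, adjusted p = 0.963). With the array median as the scale its differences were 0.37 and 0.84, so its direction depends on the scale.

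Hspb3, which is known mainly from muscle, was well above background on only 2 of 12 arrays, the Sertoli fractions of control mice 99 (-6.34) and 73 (-5.82). The third control Sertoli array was at -6.92 and the knockout Sertoli arrays at -6.79, -6.93 and -7.66, none of them well above background. No fold is given for it.

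The order of the 4 groups was the same for Hspb1, Cryab, Hspb2 and Bag3, with the control Sertoli fraction highest, then the knockout Sertoli, the knockout germ and the control germ fraction. With the probes used in the fit, neighbouring groups in this order did not overlap, except for both Sertoli groups of Hspb2 and of Bag3. For Hspb8 the knockout Sertoli fraction came first and overlapped with the control Sertoli fraction, and the germ groups followed as for the others. For Hspb6 the genotypes overlapped in both fractions, and for Hspb7 in the germ fraction alone. For Hspb9 the germ groups came first and overlapped with each other, as did its Sertoli groups, and for Hspb11 every neighbouring pair overlapped.

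Genes whose products work with the members were taken from 6 lists. Of the 15 tested genes around Hspb8 and Bag3 in chaperone-assisted selective autophagy, 12 were called higher in the control Sertoli fraction than in the control germ fraction and 2 lower (median 2.55), beside the background shares of 39.8% and 36.6%. Among the higher ones were Flnc, the muscle filamin that this pathway clears, at 6.09, and Flna at 5.19, and so was Synpo, an actin-binding protein of the synaptopodin family, at 5.52. Nbr1, an autophagy receptor, was lower by 6.29 (a difference of -6.29), as was Map1lc3a at -1.36, and Synpo2, the synaptopodin that binds Bag3 in muscle, did not pass at -0.37 (adjusted p = 0.341, limma). Stub1 and Hspa8, the ligase and the Hsc70 of the Hspb8 and Bag3 complex, were higher by 1.34 and 1.59. Between knockout and control none of the 15 was called in either fraction, and the median difference was 0.24 in the germ fraction and 0.0050 in the Sertoli fraction. The 2 with the smallest unadjusted p in the Sertoli fraction were Synpo (0.29 ± 0.17) and Flna (-0.31 ± 0.23), both at an adjusted p of 0.9996 by limma.

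Among the 5 other BAG domain genes, Bag2, an inhibitor of the ligase Stub1, was the 1 called higher in the control Sertoli fraction, at 3.84. Bag5 (-3.07), Bag4 (-2.33) and Bag6 (-1.36) were lower, and Bag1 did not pass (-0.24). Of the 6 heat shock factor genes and regulators, 2 were higher and 3 lower, among them Hsf4 at 2.27 and Hsf5, a factor of male germ cells, at -10.16. A further lower gene passed the filter through its germ arrays alone, so its call is not read. Hsf1, the main factor of the heat shock response, did not pass (-0.23, adjusted p = 0.263, limma). Of 11 tested heat-inducible chaperones, 6 were higher and 3 lower. The higher ones included the mitochondrial pair Hspd1 (2.79) and Hspe1 (2.69) and the inducible Hsp70 gene Hspa1a (2.42), and the lower ones Dnajb1 (-1.75). Of all genes, 39.8% were called higher and 36.6% lower in control Sertoli fractions, so nothing is read from the counts of these 3 lists. Between knockout and control, no gene of these 3 lists was called in either fraction, and the medians were -0.12, -0.090 and 0.071 in the germ fraction and -0.076, -0.057 and -0.095 in the Sertoli fraction.

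Hspb11 is a subunit of intraflagellar transport complex B, whose other subunits were mostly higher in germ fractions. Of 14 tested subunits, Hspb11 not counted, 10 were called lower in control Sertoli than in control germ fractions and none higher (median -2.54). Of all genes, 36.6% were called lower and 39.8% higher there. Ift81 (-4.75) and Ift172 (-4.33) lay at the far end. Ift27, the direct partner of Hspb11 in the complex, did not pass (0.14, adjusted p = 0.604, limma), and neither did Hspb11 itself. All 14 had a germ-fraction mean below that of the controls in knockouts (median -0.24, beside -0.28 for Hspb11), none was called, and all genes had a median of -0.04. Of the 12 spermatid markers, 10 also had a lower mean in knockout germ fractions (median -0.35), and their part in the lower values of Hspb11 and the other subunits was not tested. Of the 2 relatives outside the members, Odf1 is a protein of the sperm tail outer dense fibres. It was at least 1028-fold higher in control germ than in control Sertoli fractions, and no Sertoli array had it well above background. Odf1 passed the filter through its germ arrays alone, so this is a description without a test. Cryaa, the lens alpha crystallin, did not pass (1.07, adjusted p = 0.199).

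The genes with patterns closest to those of Hspb8 and Bag3 were ranked among 16460 genes, by the root mean square distance over the 12 arrays of log2 levels centred on each gene's mean. Nearest to Hspb8 were Igfbp3, a secreted protein that binds insulin-like growth factors (distance 0.49), the membrane metalloproteinase Mmp23 (0.58), the adhesion protein Adam23 (0.66), the secreted glutathione peroxidase Gpx3 (0.75) and the transcription factor Maf (0.75). Their germ-fraction differences between knockout and control were 3.07, 2.53, 2.89, 2.15 and 2.10. Of the members, Hspb2 came at rank 223 (1.18) and Cryab at rank 344 (1.28), while Bag3 came at rank 4967 (2.96). Nearest to Bag3 were Tor1aip2 (0.10), Rbm39 (0.10), Siva1 (0.11), Tssc4 (0.11) and Copz1 (0.12), and the nearest member was Hspb6 at rank 1496 (0.35). The distances rest on the same arrays as the values above and are a description of likeness, with no test.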

How the data were processed

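RNA of 12 testis cell fractions was hybridised to 1-colour Agilent arrays after Cy3 labelling, per the labels' protocols. The deposited intensity used is the processed signal, background-subtracted by Feature Extraction 10.7.3.1, per the file headers, which name build mm9. The authors also deposited log2 values (column medians 8.29, ordered as the processed signal), with limma named in the submitters' processing notes.

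Outlier and control spots were left out, spots of a probe averaged, and log2 signal minus the array's 75th percentile taken. A probe was kept when well above background on all 3 arrays of a group, and a gene was represented by its probe of highest mean. Of the probes, 26055 were named by accession through RefSeq (GRCm38.p6). limma 3.58.1 (R 4.3.3), tested on simulated data, was fitted on 4 group means over 12 arrays, with Benjamini-Hochberg adjustment over 25019 genes. Both fractions of a knockout and of a control mouse shared a slide of 4 arrays, and slide 3 (mice 72 and 74) was scanned on another day.

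Members, lists and markers were chosen with earlier results of these data known. Named are all members, up to 4 called genes of a list with the largest difference (otherwise the 2 of smallest p), some further list genes chosen for their role after their values were seen, and the 5 genes nearest to Hspb8 and to Bag3. A gene that this rule would name is not reported here. Alternatives were quantile and median scaling, the deposited log2 table, no filter, a filter on all 12 arrays, every probe, slide and mouse as blocks, and subsets of mice. Normexp used the deposited median spot and background intensity, since the mean signal planned for it was not among the columns. Mouse numbers pair the fractions of an animal. The deviations of its 2 fractions from their group means correlated with r between -0.16 and 0.46.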

Additional observations from a re-analysis of the deposited data

Results flagged for a closer look

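Hspb1 and Cryab stood out because their knockout differences had opposite directions in the 2 fractions without overlap of arrays in either. Hspb2 (0.53 in the germ fraction and -0.16 in the Sertoli fraction) and Bag3 (0.12 and -0.16) also had opposite directions, with overlapping arrays in the Sertoli fraction. For Hspb1 every knockout germ array lay above every control germ array and every knockout Sertoli array below every control Sertoli array, and the germ difference exceeded the Sertoli difference by 0.95 (log2). For Cryab, with the same arrangement of arrays, it exceeded it by 0.93. The second Cryab probe had the same signs, with overlapping groups in both fractions. The share of all genes with this arrangement of arrays is not given, so it is not read as particular to these genes. The difference between the fractions was not tested for either gene, since it contains the contrast that chose the group.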

How the results depend on the processing

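In the germ fraction, 55 genes were called between knockout and control. The count was 1 with the 8-month-old mice, 28 with the array median as the scale, 28 with no filter and 3 with normexp, and between 3 and 130 with each mouse left out in turn. Without both mice titled het, mouse 99 is the only control, so only differences are given for that setting. No call is read for the members in this contrast, which chose them. The Hspb8 difference lay between 2.29 (normexp) and 4.34 (without both mice titled het) over 16 alternatives. The 4.34 rests on a single control germ array, where Hspb8 was not well above background. With probes well above background on all 12 arrays Hspb8 dropped out. In the Sertoli fraction, 0 to 5 genes were called in place of 0 with each mouse left out, with 5 called without mouse 99. No member was called there under any alternative.

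Signs turned for small differences. In the germ fraction, knockout minus control of Hspb7 was 0.69 without both mice titled het, 0.33 without mouse 74, 0.29 without mouse 86 and 0.0063 without mouse 73. There Hspb6 was at 0.034 and Hspb9 at 0.038 with quantile normalisation (0.033 and 0.038 with the deposited table), Hspb6 was at 0.0098 without mouse 72, and Hspb11 was at 0.055 with the 8-month-old mice. In the Sertoli fraction, with normexp, Hspb2 was at 0.080 and Hspb6 at 0.018 in knockout minus control, and Hspb9 was at 0.074 without the mice titled het. With each mouse left out, Hspb9 there lay between -0.64 and 0.18 (above 0 without mouse 74) and Hspb11 between -0.16 and 0.19 (below 0 without mouse 74, 86 or 99). Between the fractions, Hspb11 turned to 0.37 in controls and 0.84 in knockouts with the array median as the scale, and in knockouts it lay between -0.097 and 0.11 with each mouse left out, above 0 without mouse 86. The cause was not tested. With the mouse as a replicate block, which pairs the fractions of an animal, 55 genes were called between the genotypes in the germ fraction and 0 in the Sertoli fraction, and 19772 and 19306 between the fractions in controls and knockouts. The block changed no call of a member.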
